A study of Rattus norvegicus with 10 samples.

Results

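The translation initiation and elongation factors are the proteins that load the ribosome with initiator tRNA and mRNA, carry it along the message and release the finished chain. Members were all probe sets whose single gene symbol in the array's annotation begins with Eif1, Eif2, Eif3, Eif4, Eif5, Eif6, Eef1, Eef2 or Etf1, with Eif2s3 left out. This rule gave 66 probe sets for 56 genes, of 15923 probe sets on the array. It also took in the eEF1A methyltransferases Eef1akmt1 and Eef1akmt4 and the eIF1A-like protein gene Eif1ad. A further 4 probe sets, annotated to Eif3e or Eif5 together with other genes, had several symbols and were not counted as members.

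The study compared kidneys of rat fetuses whose growth was restricted by excess insulin in the mother with kidneys of normal fetuses. All 10 samples were total RNA of whole fetal kidney from day 22 of gestation, near birth, each on its own 1-colour Affymetrix array. The normal group (replicates 1 to 5) came from mothers on a regular diet. The hyperinsulinemic group (replicates 6 to 10) came from Wistar rats of 200 to 280 g, also on a normal diet, that received a 2 mm piece of a slow-release insulin pellet under the skin before mating and a second time after it. The labels state the strain for the treated mothers, and they give no litter, fetal sex, batch or date. A p-value here speaks of the scatter among these 10 samples alone, part of which may be technical, and it would be too small if some fetuses shared a mother.

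In eukaryotes, eIF2 brings initiator tRNA to the small ribosomal subunit, eIF3 holds the complex together, and the eIF4 proteins bind the mRNA cap and unwind the leader that is scanned for a start codon. Insulin and amino acids act on this machinery through mTOR, which releases eIF4E from its 4E-binding proteins, and through kinases that phosphorylate eIF2 and so limit its recharging by eIF2B. Much of this control works on proteins, by phosphorylation or by selective translation of messages that begin with a pyrimidine tract, as those of eEF1A and eEF2 do. Arrays of total RNA measure the mRNA and see none of these steps.

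Promoter sequences are shown for members whose signals are described further on, to set the letters beside the results. They come from RefSeq on the GRCr8 assembly, in windows of 250 bases before to 50 after the annotated start. Of the 56 genes, 51 matched, with 54 windows, since 3 genes have several starts; Eef1d, Eif3h, Eif4b, Eif4e3 and Eif4ebp1 had no entry. In each sequence, which runs from 40 bases before the start to 10 after it, capitals mark CCGGAAG or its reverse complement CTTCCGG, the letters that ETS-family factors can bind.
Eif3i, chr5:147226901-147226950, minus strand: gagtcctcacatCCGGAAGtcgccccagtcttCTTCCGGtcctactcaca
Eif3k, chr1:93397478-93397527, minus strand: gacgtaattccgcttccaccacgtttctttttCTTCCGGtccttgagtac
Eif3m, chr3:111897184-111897233, minus strand: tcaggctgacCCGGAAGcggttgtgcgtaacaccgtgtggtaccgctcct
Eif2b2, chr6:110597939-110597988, plus strand: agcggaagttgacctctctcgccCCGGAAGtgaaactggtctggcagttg
Eef1a1, chr8:88225060-88225109, minus strand: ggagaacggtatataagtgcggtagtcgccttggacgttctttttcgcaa
Eif5a, chr10:55143212-55143261, minus strand: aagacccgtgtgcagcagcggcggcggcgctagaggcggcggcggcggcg

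The motif occurred on either strand in 19 of the 54 member windows (35.2%), against 10.7% of 21851 windows of protein-coding genes. It lay in 4 of 10 windows of eIF3 subunit genes (Eif3d, Eif3i, Eif3k and Eif3m) and in 6 of 9 windows of the scanning factor genes, but in 0 of 7 windows of elongation factor genes. The palindrome CACGTG, an E-box, was in 11 member windows (20.4%, against 7.02% of all). CCAAT or ATTGG was in 17 (31.5%, against 38%), ATGGCGG or CCGCCAT in 5 (9.26%, against 6%), and TATAAA or TTTATA in 3 (5.56%, against 13%). Member windows held a median of 23 CpG and 60.3% G and C, against 11 CpG and 55% in all windows, and the part of base composition in these shares was not tested. A match is a stretch of letters, not evidence of binding, and none of the windows was read in these kidneys.

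No member mRNA passed the test between the kidneys of normal and of hyperinsulinemic mothers, and each tested member probe set had an interval within 1.5-fold. Eif2s3, an initiation factor gene left out by the rule, did not pass either (limma adjusted p = 0.133). Its 95% interval, from 0.43 to 0.98 log2 units, was not within 1.5-fold. Of 66 member probe sets, 56 (51 genes) were bright enough to test, and 0 of them had an adjusted p under 0.05 (limma with Benjamini-Hochberg adjustment over 9601 probe sets, of which 1, or 0.0104%, passed). Their adjusted p-values ran from 0.907 to 0.998. Log2 differences, taken as hyperinsulinemic minus normal on the scale of log2(signal + 16), ran from -0.14 for Eif4ebp1 to 0.17 for Eef1a1. The 95% interval lay within 1.5-fold in either direction for 56 of 56 tested probe sets (background 98.5%) and within 1.2-fold for 44 (78.6%, background 60.3%). The number of arrays limits the precision, and a p above the threshold does not show that levels were equal. In whole tissue, fewer cells of a type and less RNA per cell cannot be told apart.

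**Figure D1:**
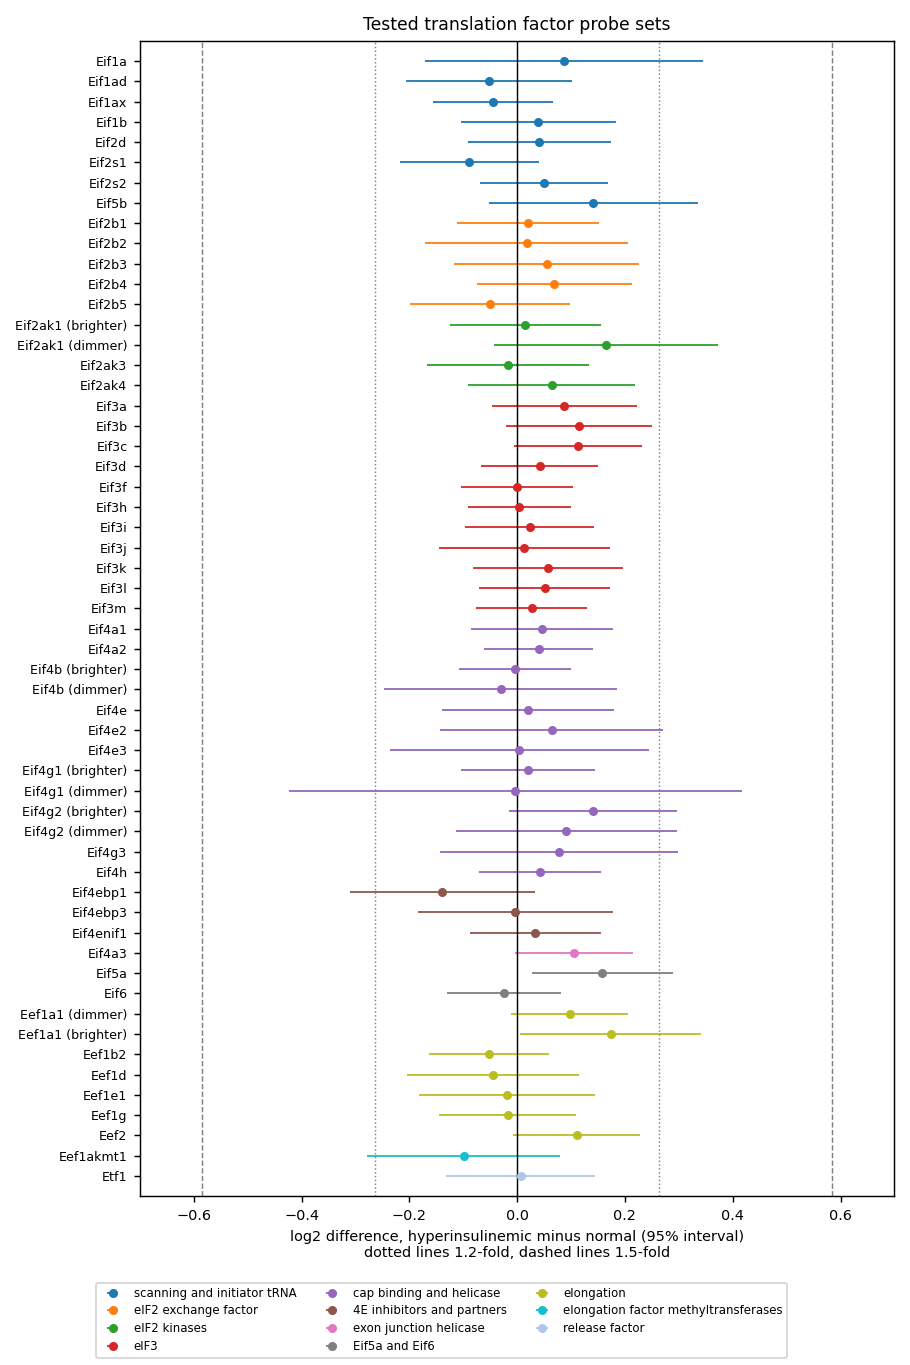
Log2 difference (x axis, hyperinsulinemic minus normal, 5 arrays each) with its 95% interval for each of the 56 tested probe sets (y axis), coloured by role; dotted and dashed lines mark 1.2-fold and 1.5-fold. All intervals lie inside the dashed lines, and those of Eif5a and of 1 Eef1a1 probe set lie to the right of 0.

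An unadjusted p under 0.05 was met by 2 members (3.57%), Eif5a and Eef1a1, against 5.36% of all tested probe sets. Both were higher in the hyperinsulinemic group (2.44% of all probe sets were higher and 2.93% lower at that level), and 0 members were lower. No member had groups that did not overlap, against 1.04% of all probe sets. A log2 difference above 0 was seen for 39 of the 56 (69.6%, against 50.9% of all tested) and below 0 for 17. The median difference was 0.03, against 0.00 over all probe sets, and the median size regardless of sign was 0.05, against 0.06. Within groups the members' log2 signals had a median SD of 0.10, against 0.13 for all. Their median signal was 790.5, against 288 for all, on an array where signals of different probe sets are not comparable as mRNA levels.

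**Figure D2:**
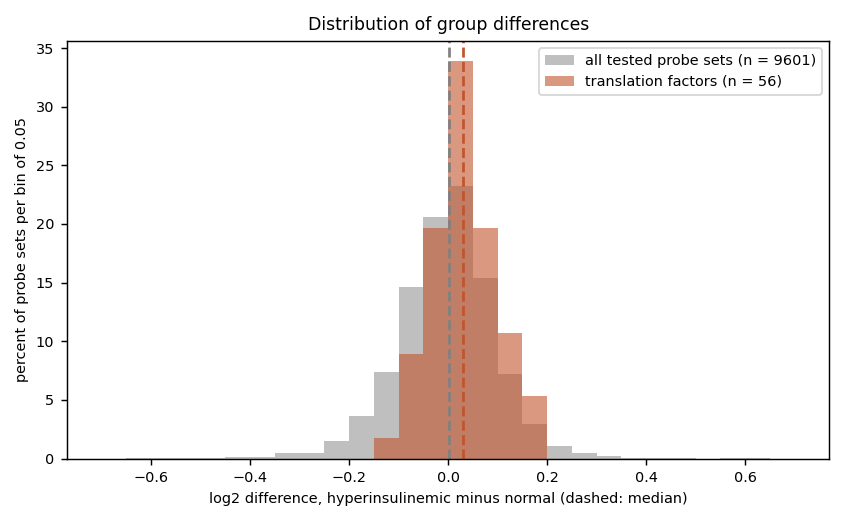
Percent of probe sets (y axis) by log2 difference, hyperinsulinemic minus normal, in bins of 0.05 (x axis), for the 56 tested translation factor probe sets and all 9601 tested, of which 13 lie outside the plotted range; dashed lines are medians. The members' median is 0.03 and that of all probe sets, which include the members, is 0.00.

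Array by array, the members' mean deviation from their own averages ran from -0.03 to 0.02 log2 units in the normal group and from 0.00 to 0.05 in the hyperinsulinemic group, so the groups overlapped. The overlap came from normal replicate 5 (0.0249). The other normal arrays, at -0.031 to -0.0188, lay below every hyperinsulinemic array, and a group difference in this mean was not tested. Hyperinsulinemic replicate 10 was the highest array for 16 of the 56 members (28.6%), and for 13.3% of all tested probe sets. Normal replicate 1 was the highest for 1 member (1.79%, against 8.21% of all). Without hyperinsulinemic replicate 10, 35 of 56 members (62.5%) had a difference above 0 and the median was 0.03.

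**Figure D3:**
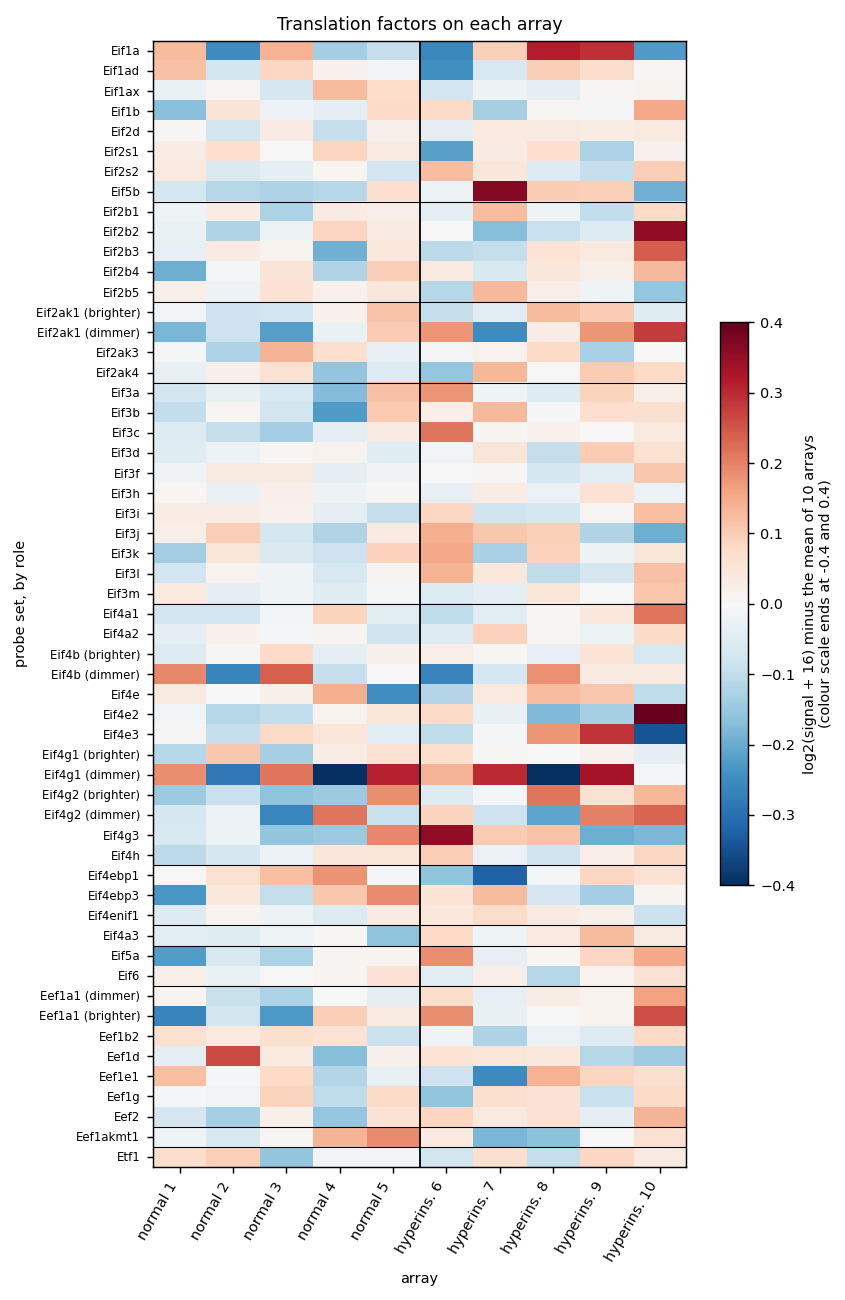
Each cell is the log2(signal + 16) of a tested translation factor probe set (y axis, ordered by role) on an array (x axis, 5 normal and 5 hyperinsulinemic, abbreviated hyperins.) minus that probe set's mean over all 10 arrays; colours end at -0.4 and 0.4. No member separates the groups completely; the rightmost column, hyperinsulinemic replicate 10, has the highest value in 16 of 56 rows.

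Markers of the kidney were present, with all 12 listed genes on the array bright enough to test and a summed signal of 11079.3 to 12204.5 in the normal and 12032.1 to 12895.9 in the hyperinsulinemic arrays. Other tissues' markers varied between arrays. The 13 liver genes on the array summed to 1481.2 to 3146.9 in the normal and 1820.3 to 6109.7 in the hyperinsulinemic group, with the highest sum in hyperinsulinemic replicate 6. The 5 erythroid genes summed to 5114.9 to 6604.3 and 6051.1 to 8132.6, with the highest in hyperinsulinemic replicate 10. The 8 adrenal genes reached 983.1 in normal replicate 1, and stayed between 127.9 and 216.6 in the hyperinsulinemic group. The 7 neuronal genes summed to 904.1 to 999.1 and 865.7 to 979.1, and the 7 striated muscle genes, of which 0 were bright enough to test, to 109.5 to 168.2 and 103.1 to 179.9. The part of these markers in the differences was not tested, and leaving out arrays cannot test it, since an array may differ in other ways too. Gapdh control signals, a sign of RNA integrity, gave a 3' to 5' ratio of 1.07 ± 0.0505 in normal and 1.09 ± 0.0649 in hyperinsulinemic arrays (SD, n = 5 each).

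Xist, the X-inactivation RNA, read 0.8 to 2 in all normal arrays and 42.4 to 70.5 in all hyperinsulinemic arrays, so the groups may differ in fetal sex, which the labels do not give. Fetal sex and the mother's treatment cannot be told apart in any difference given here, those of the X-linked Eif2s3 and Ddx3x included. The Y-linked Sry read 9.8 to 24.2 in the normal and 3.7 to 25.6 in the hyperinsulinemic arrays, too dim to test and overlapping. The 6 listed X- and Y-linked genes on the array, which include Xist, Eif2s3, Ddx3x and the member Eif1ax, summed to 2976.4 to 3629 and 3661.7 to 4303, without overlap. Eif2s3, which encodes the gamma subunit of eIF2, lies on the X chromosome and is no member, read 341.5, 397.7, 372.6, 233.5 and 435.6 in normal replicates 1 to 5. In hyperinsulinemic replicates 6 to 10 it read 593.7, 567.2, 547.4, 516.4 and 678. Its groups did not overlap, and its log2 difference was 0.70 ± 0.13 (SE; limma adjusted p = 0.133). Its partner subunits, which are members, gave no such gap. For Eif2s1, the alpha subunit that the stress kinases phosphorylate, the normal arrays read 823.9, 845.7, 807.3, 855.8 and 827.8 and the hyperinsulinemic arrays 691.7, 825.1, 845.5, 738.9 and 815.7. Hyperinsulinemic replicates 6 and 9 lay below every normal array and the other 3 within the normal range, with a log2 difference of -0.09 ± 0.06 (SE).

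Eif2s2, the beta subunit of eIF2, was the brightest probe set among the scanning and initiator tRNA factors. It read 1003.5, 938.3, 951.4, 982.6 and 924.6 in the normal group and 1064.7, 1008.1, 941.7, 915.2 and 1046.6 in the hyperinsulinemic group. The highest and the lowest of all 10 values were both hyperinsulinemic (replicates 6 and 9), and the log2 difference was 0.05 ± 0.06 (SE). Eif1ax, the only member on the X chromosome, encodes eIF1A, which helps the scanning ribosome settle on a start codon. Its signals were 856.9, 878.2, 832.8, 954.4 and 920.1 against 827.9, 860.5, 849.7, 878.2 and 882.1, with means of 888 ± 48.9 and 859.7 ± 22.1 (SD, n = 5 each). The groups overlapped, though normal replicates 4 and 5 lay above every hyperinsulinemic array and hyperinsulinemic replicate 6 below every normal array. The difference of -0.05 ± 0.05 (SE) had a 95% interval from -0.16 to 0.07.

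Eif5b, the GTPase that joins the large subunit, read 250.5, 242.3, 240.9, 242.3 and 277 in the normal group and 259.4, 344.8, 284.3, 282.9 and 228.8 in the hyperinsulinemic group. Its log2 difference was 0.14 ± 0.09 (SE), and hyperinsulinemic replicate 10 was the lowest array while replicate 7 was the highest. Over the 8 tested scanning factor probe sets, 5 differences were above 0 and 3 below, from -0.09 to 0.14, with a median of 0.04. Eif1a stood at 0.09, Eif2d at 0.04, Eif1b at 0.04 and Eif1ad at -0.05.

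The eIF2B complex exchanges GDP for GTP on eIF2 and is blocked by phosphorylated eIF2, and all 5 of its subunit genes were tested. Eif2b4, the brightest, read 375.5, 429.6, 448, 395.8 and 463.8 in the normal group and 443.3, 413, 446.1, 438.8 and 474.2 in the hyperinsulinemic group. Normal replicate 1 was the lowest and hyperinsulinemic replicate 10 the highest, with the other 8 arrays intermixed and a log2 difference of 0.07 ± 0.07 (SE). Eif2b1 stood at 0.02, Eif2b2 at 0.02, Eif2b3 at 0.05 and Eif2b5 at -0.05. The complex thus had 4 subunit genes above 0 and 1 below, with a median of 0.02.

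Of the kinases that phosphorylate eIF2, the heme-regulated Eif2ak1, the endoplasmic reticulum kinase Eif2ak3 and the amino acid sensor Eif2ak4 were tested. The double-stranded RNA sensor Eif2ak2 was not, at 45.8 to 71.4 on all arrays. The brightest kinase probe set, 1 of a pair for Eif2ak1, read 378.1, 358.7, 360.4, 386.2 and 413.9 in the normal group and 355.8, 368.6, 417.7, 409.7 and 367.7 in the hyperinsulinemic group, with a log2 difference of 0.02 ± 0.07 (SE). The dimmer Eif2ak1 probe set read 231.5, 249.4, 225, 259.7 and 285 against 301.5, 220, 270.5, 301.2 and 325.2, a difference of 0.16 ± 0.10 (SE). In the brighter set the highest and lowest arrays were both hyperinsulinemic. In the dimmer set, 3 of 5 hyperinsulinemic arrays lay above every normal array while replicate 7 was the lowest of all. Eif2ak3 stood at -0.02 and Eif2ak4 at 0.06.

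eIF3 is the largest initiation factor, a scaffold of many subunits on the small ribosomal subunit, and 11 of its 11 member probe sets were tested. Of these, 10 had a difference above 0, from 0.00 for Eif3h to 0.11 for Eif3b and Eif3c; Eif3f lay just below 0, at 0.00 after rounding. Under quantile normalization 9 were above 0, since Eif3h moved below it. The median was 0.04, but 0.03 (0.0267) without hyperinsulinemic replicate 6 and 0.01 without the 2 arrays with the most Alb, and the widest bounds of the 11 intervals were -0.15 and 0.25. A mean over the subunits, as deviation from each probe set's own average, ran from -0.08 to 0.02 log2 units in the normal arrays and from -0.01 to 0.08 in the hyperinsulinemic arrays. The highest was hyperinsulinemic replicate 6 and the lowest normal replicate 4, with overlap between the groups.

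Eif3c, a core subunit, read 1316, 1276, 1239.9, 1328.7 and 1395.8 in the normal group and 1582.8, 1373.4, 1380, 1364.8 and 1401.3 in the hyperinsulinemic group. Normal replicate 5 lay above hyperinsulinemic replicates 7, 8 and 9, and replicate 6 stood clear of the rest. Means were 1311 ± 58.8 and 1420.5 ± 91.7 (SD, n = 5 each), with a log2 difference of 0.11 ± 0.06 (SE; limma adjusted p = 0.933). Eif3m, the brightest eIF3 probe set, read 1833.5, 1741.7, 1765, 1723.4 and 1777.5 against 1718.7, 1741.9, 1844.4, 1780.7 and 1929.4. Both its lowest and its highest array were hyperinsulinemic, and the difference was 0.03 ± 0.05 (SE).

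Eif3b, an RNA-binding core subunit, read 556.2 to 704.4 in the normal group and 651.8 to 717.7 in the hyperinsulinemic arrays, a log2 difference of 0.11 ± 0.06 (SE). Eif3h was the most tightly measured member, with an SE of 0.04: its signals lay between 1306.5 and 1356.6 in the normal and between 1303 and 1388.4 in the hyperinsulinemic group. The other subunits stood at 0.09 (Eif3a), 0.06 (Eif3k), 0.05 (Eif3l), 0.04 (Eif3d), 0.02 (Eif3i) and 0.01 (Eif3j). Eif3i, Eif3k and Eif3m, whose promoters carry the capital letters shown earlier, lay inside the range of the other subunit genes. Those others include Eif3d, which also holds the motif, and Eif3h, which had no promoter entry. A link between motif and difference was not tested.

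The eIF4 proteins bind the cap (eIF4E), bridge it to the ribosome (eIF4G) and unwind the leader (eIF4A with eIF4B and eIF4H). Of 14 such probe sets, 13 were tested: 10 differences were above 0 and 3 below, from -0.03 to 0.14, with a median of 0.04. Eif4a2, the brightest, read 2368.9, 2458, 2415.7, 2451.5 and 2298.5 in the normal group and 2340.4, 2593.2, 2437.5, 2396.4 and 2566.4 in the hyperinsulinemic group. Hyperinsulinemic replicates 7 and 10 were above the normal range and the other 3 inside it, with a log2 difference of 0.04 ± 0.05 (SE). Eif4a1, the paralogous helicase, stood at 0.05 and Eif4h at 0.04.

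Eif4g2, an eIF4G relative that lacks the eIF4E-binding part and serves cap-independent initiation, gave the largest difference among these. Its brighter probe set read 1707, 1776.1, 1688.9, 1706.5 and 2151.4 in the normal group and 1823.9, 1881.6, 2192.1, 1972.1 and 2073.5 in the hyperinsulinemic group. All hyperinsulinemic arrays lay above normal replicates 1 to 4, but normal replicate 5 lay above 4 of them, and the log2 difference was 0.14 ± 0.07 (SE; limma adjusted p = 0.941). The second probe set of the gene stood at 0.09 ± 0.10 (SE).

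The cap-binding protein itself, Eif4e, read 963.6 to 1268.1 in the normal and 1056.9 to 1252.6 in the hyperinsulinemic arrays, a difference of 0.02 ± 0.07 (SE). Its relatives Eif4e2 and Eif4e3 stood at 0.06 and 0.00. The scaffold Eif4g1 stood at 0.02 for its brighter probe set and at 0.00 for the dimmer one, which had the widest interval of any member, from -0.42 to 0.42. Eif4g3 stood at 0.08, and the probe sets of Eif4b at 0.00 and -0.03. The paired probe sets of Eif4g2, Eif4b, Eef1a1 and Eif2ak1 gave differences of the same sign, and those of Eif4g1 gave opposite signs close to 0.

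The 4E-binding proteins hold eIF4E back until mTOR, downstream of insulin, phosphorylates them. Eif4ebp1 had the lowest difference of any member and was the brightest of this role. It read 350.8, 367.3, 383.5, 399.9 and 349.2 in the normal group and 312.5, 278, 350.4, 373.6 and 366.3 in the hyperinsulinemic group. Hyperinsulinemic replicates 6 and 7 lay below every normal array, and the other 3 lay within the normal range. The means were 370.1 ± 21.7 and 336 ± 40.2 (SD, n = 5 each), and the log2 difference was -0.14 ± 0.08 (SE; limma adjusted p = 0.941). Eif4ebp3 stood at 0.00 and Eif4enif1, which carries eIF4E into the nucleus, at 0.03; Eif4ebp2 was too dim to test, at 54.1 to 83.7.

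Eif4a3 is a helicase of the exon junction complex, which marks spliced mRNA, rather than of cap-dependent initiation. It read 981.8, 979.1, 1002.3, 1017.2 and 905.4 in the normal group and 1071.6, 1002, 1042.4, 1108 and 1039 in the hyperinsulinemic group. In the hyperinsulinemic group 4 arrays lay above every normal array, and replicate 7 lay among the normal values. Means were 977 ± 43.0 and 1053 ± 39.6 (SD, n = 5 each), with a log2 difference of 0.11 ± 0.05 (SE; limma adjusted p = 0.931).

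Eif5a carries hypusine, a modified lysine, and helps the ribosome through difficult stretches such as runs of proline. It read 1756.9, 1966.6, 1879.7, 2069 and 2069.8 in the normal group and 2340.1, 2009.1, 2068.1, 2175.4 and 2284.8 in the hyperinsulinemic group. Hyperinsulinemic replicates 6, 9 and 10 lay above every normal array and replicates 7 and 8 within the upper part of the normal range. The means were 1948 ± 133 and 2175.5 ± 139.9 (SD, n = 5 each). The log2 difference was 0.16 ± 0.06 (SE), with a 95% interval of 1.02-fold to 1.22-fold, and it did not pass (limma unadjusted p = 0.0208, adjusted p = 0.907). It was 0.10 without hyperinsulinemic replicates 6 and 10 together, which hold the highest Eif5a signals, so their omission must lower it. With the liver marker level as a covariate it was also 0.10. Dhps and Dohh, the enzymes that make hypusine, stood at 0.05 ± 0.10 and 0.02 ± 0.07 (SE).

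Eif6, which keeps the large subunit from joining too early, read 1056.1, 1020.1, 1036, 1046 and 1080.6 against 1005.5, 1056.8, 957.4, 1049.2 and 1081. The hyperinsulinemic values lay on both sides of the normal ones, with a log2 difference of -0.03 ± 0.05 (SE).

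eEF1A delivers aminoacyl-tRNA to the ribosome, the eEF1B subunits recharge it, and eEF2 moves the ribosome on by a codon. The brighter Eef1a1 probe set, also the brightest of this role, read 4732.5, 5407.7, 4855.5, 6100.1 and 5831.1 in the normal group and 6470.8, 5578.5, 5702.8, 5753.1 and 6814 in the hyperinsulinemic group. Only hyperinsulinemic replicates 6 and 10 lay above every normal array, and normal replicate 4 lay above the other 3. The means were 5385 ± 595 and 6064 ± 546 (SD, n = 5 each), and the log2 difference was 0.17 ± 0.08 (SE; limma unadjusted p = 0.0449, adjusted p = 0.918). The difference was 0.08 without those 2 hyperinsulinemic arrays, which hold the probe set's highest values, so their omission must lower it. It was 0.10 with the liver marker level as a covariate and 0.04 under quantile normalization.

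The dimmer Eef1a1 probe set, of a type that can share probes with related transcripts, read 4751.5, 4430.8, 4315.9, 4709.8 and 4586.5 against 4951.2, 4606.6, 4810.5, 4762.6 and 5268.3. Hyperinsulinemic replicates 6, 8, 9 and 10 exceeded the normal maximum and replicate 7 did not, and the log2 difference of 0.10 ± 0.05 (SE) became -0.02 under quantile normalization. Eef1a2, the form of muscle and neurons, was too dim to test, at 38.5 to 64.6 on all arrays.

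Eef2 read 2546.8, 2434.9, 2704.1, 2395 and 2777.3 in the normal group and 2830.9, 2742.4, 2775.7, 2594.9 and 2934.2 in the hyperinsulinemic group. Hyperinsulinemic replicates 6 and 10 lay above every normal array, and replicate 9 below 2 of them. Means were 2572 ± 166 and 2776 ± 124 (SD, n = 5 each), with a log2 difference of 0.11 ± 0.06 (SE; limma adjusted p = 0.934). Eef2k, the kinase that halts eEF2, has 4 probe sets, and 0 were bright enough to test, with signals from 4.9 to 112.5.

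The recharging subunits stood slightly below 0, each with a 95% interval that included 0. Eef1g read 3613.6, 3604, 3869.9, 3386.5 and 3838.1 in the normal group and 3259.2, 3804.1, 3787.6, 3417 and 3834.2 in the hyperinsulinemic group. The lowest of all 10 was hyperinsulinemic replicate 6 and the groups overlapped, with a log2 difference of -0.02 ± 0.06 (SE). Eef1b2 stood at -0.05 ± 0.05 and Eef1d at -0.045 ± 0.08 (SE), and Eef1e1, a partner of the synthetase complex, at -0.02 ± 0.08 (SE). Of the 7 tested elongation probe sets, 3 were above 0 and 4 below, with a median of -0.02; under quantile normalization 2 were above. Whether Eef1a1 and Eef2 differ in their response from the recharging subunits was not tested.

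**Figure D4:**
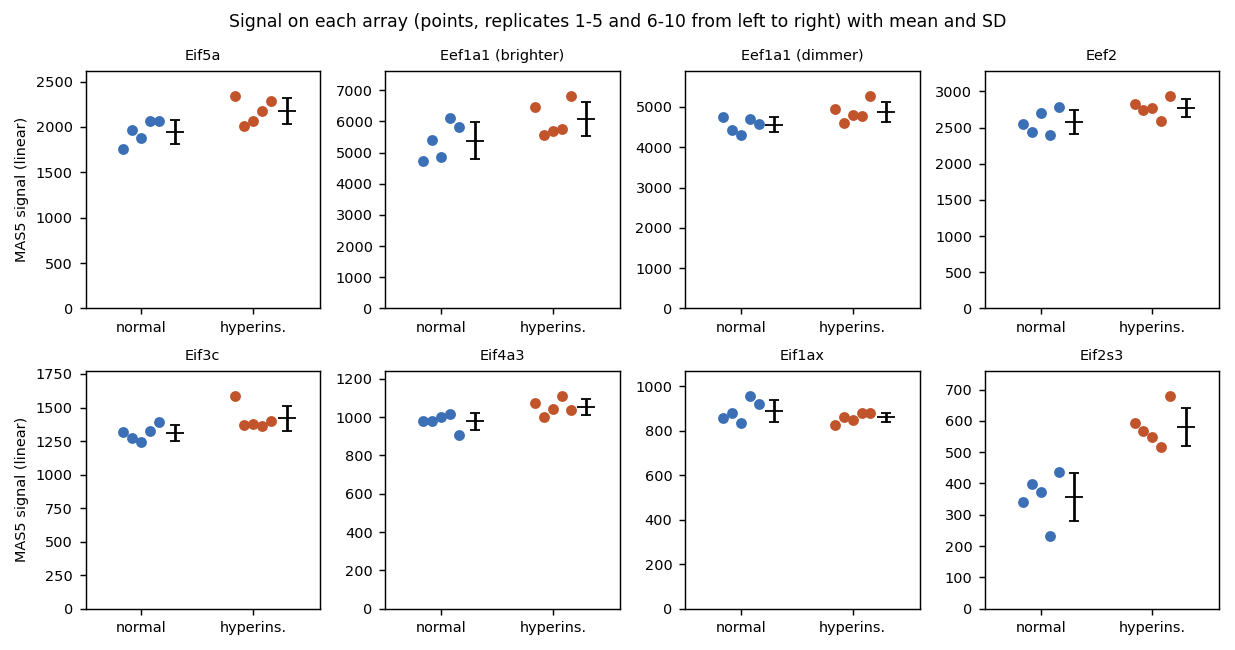
MAS5 signal on a linear axis from 0 (y axis) in normal and hyperinsulinemic (hyperins.) samples for 7 member probe sets and, last, the non-member Eif2s3; points are arrays in order of replicate and bars give mean and SD (n = 5 each). The groups overlap in each member shown and do not overlap for Eif2s3, at 233.5 to 435.6 against 516.4 to 678.

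Etf1, the release factor that reads stop codons, read 445.8, 453.9, 378.1, 420.8 and 420.4 in the normal group and 402.3, 443.9, 396.2, 450.1 and 434.9 in the hyperinsulinemic group. The hyperinsulinemic values lay wholly inside the normal range, with a difference of 0.01 ± 0.06 (SE). Eef1akmt1, which methylates eEF1A, read 131.9, 127.1, 134, 148.3 and 154.6 against 137.8, 115.8, 117.4, 133.4 and 140. Hyperinsulinemic replicates 7 and 8 were below every normal array, and the difference was -0.10 ± 0.08 (SE). Eef1akmt4 was not tested, at 37.5 to 70.3.

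The 10 untested probe sets had single signals from 4.9 to 112.5, with a median of 59.65, and with no detection calls at hand nothing is said of whether they were above background. They covered 5 genes with no tested probe set (Eif4ebp2, Eif2ak2, Eef1a2, Eef2k and Eef1akmt4) and second probe sets of Eif4e and Eif2b5.

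Genes around the factors were read from lists drawn up for this pathway, with the brightest tested probe set of each gene, and in none did a gene reach an adjusted p under 0.05 (limma). Among 26 translation partners, such as poly(A)-binding proteins, eIF4E kinases and mTOR components, 13 differences were above 0 and 13 below, with a median of 0.00. Those with the smallest p were the helicase Ddx3x, on the X chromosome, at 0.23 ± 0.07 (SE; adjusted p = 0.737), the ribosome-associated ATPase Abcf1 at 0.19 ± 0.07 (SE), and the mTOR inhibitor Tsc2 at 0.13 ± 0.06 (SE). Mtor itself stood at 0.01 ± 0.07 and Larp1, which holds back pyrimidine-tract messages, at 0.09 ± 0.07 (SE).

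The integrated stress response is the programme that eIF2 phosphorylation sets off through Atf4. Of 22 tested genes on its list, 13 were above 0 and 9 below, with a median of 0.02, which was -0.0015 without normal replicate 5, -0.005 without hyperinsulinemic replicate 6 and -0.0036 with array weights. At an unadjusted p under 0.05, met by 5.36% of all tested probe sets, there was 1 gene, the amino acid transporter subunit Slc3a2, at -0.15 ± 0.05 (SE; limma adjusted p = 0.907). Slc3a2 read 1165.1 to 1330.1 in the normal and 1045.6 to 1168 in the hyperinsulinemic group. The next, Aars1 and Cars1, at 0.14 ± 0.07 and 0.13 ± 0.08 (SE), are tRNA synthetase genes that the synthetase list also holds. Sars1, Nars1, Wars1 and Gars1 are on both lists too. All of these shared genes were above 0, so the counts of the lists are not independent.

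Aminoacyl-tRNA synthetases load tRNAs with their amino acids for eEF1A to carry. Of 21 tested genes, 19 were above 0 and 2 below, with a median of 0.08, and 3 had an unadjusted p under 0.05, all higher (2.44% of all tested probe sets were higher at that level). In 2 the groups did not overlap, against 1.04% of all. Mars1, for methionine, read 352.2, 375.5, 380.9, 356.7 and 384 in the normal group and 433.6, 434.4, 423.2, 409.3 and 393.7 in the hyperinsulinemic group. Vars1, for valine, read 86.2, 73.5, 85.4, 89.5 and 72.1 against 99.3, 96.6, 97.3, 107.1 and 102.1. Those signals were dim, within the range of the untested members' signals (4.9 to 112.5). In both genes the lowest hyperinsulinemic value exceeded the highest normal value, with differences of 0.17 ± 0.06 and 0.26 ± 0.09 (SE; limma adjusted p = 0.841 for Vars1). Aimp1, a scaffold of the synthetase complex, stood at 0.22 ± 0.08 (SE) with overlapping groups. The list's median was 0.04, with 18 of 21 above 0, when hyperinsulinemic replicates 6 and 10 were left out together.

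Of 40 tested cytosolic ribosomal protein genes, 30 were above 0 and 10 below, with a median of 0.04, but under quantile normalization 18 were above 0 and the median was -0.01. Without hyperinsulinemic replicates 6 and 10 together, 14 were above 0 and the median was -0.03. Without hyperinsulinemic replicate 10 alone, 20 were above 0 and the median was 0.0012. Those with the smallest p were Rps3a at 0.12 ± 0.05 (SE), Rpl7a at 0.13 and Rpl6 at 0.11. Of the 40, only Rps3a had an unadjusted p under 0.05 (5.36% of all tested probe sets) and groups without overlap (1.04% of all). Its signals were 3852.4 to 4066.9 in the normal and 4070.3 to 4594 in the hyperinsulinemic arrays. Among 6 mitochondrial translation factor genes, 2 were above 0 and 4 below, with a median of -0.03. Without normal replicate 1, 4 were above 0 and the median was 0.0097, and without hyperinsulinemic replicates 6 and 10 together it was 0.02. Those with the smallest p were the release factor Mtrf1l at -0.14, the elongation factor Gfm1 at 0.10 and the RNA-binding protein gene Lrpprc at 0.04.

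**Figure D5:**
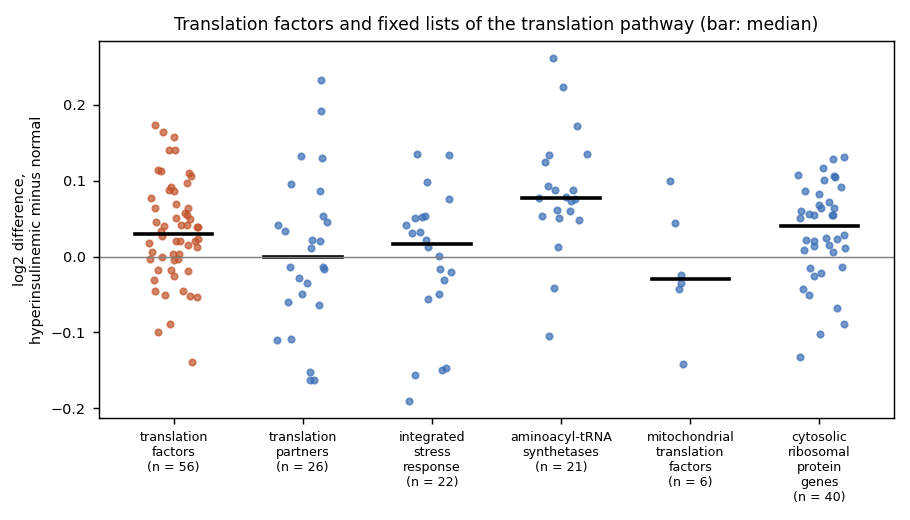
Log2 difference, hyperinsulinemic minus normal (y axis), of each tested translation factor probe set and of each tested gene in 5 lists of the translation pathway (x axis); points are probe sets, spread sideways for legibility, and bars are medians. The median is 0.03 for the translation factors and 0.08 for the aminoacyl-tRNA synthetases; no gene shown passed the adjusted test.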

How the data were processed

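The deposited values were MAS5 signal intensity values, linear, 1 per probe set and array; MAS5 is named in the submitters' processing notes, and the sources used here do not give its version, its settings or a genome build. Arrays shared a mean of 250.04 to 250.05 once 2% of values was trimmed from either end, so the values were used as deposited. Of 15923 probe sets, GEO's platform annotation gave 12789 a single gene symbol, 312 several and 2822 none. The 57 control probe sets were left out. Signals were taken as log2(signal + 16), which understates the change of dim genes. A probe set was tested if 5 or more of the 10 arrays had it at or above their 40th percentile, leaving 9601. The group difference was fitted by limma 3.58.1 under R 4.3.3 (lmFit, eBayes with an intensity trend), two-sided, adjusted over all 9601 at a threshold of 0.05. The fit was tested on simulated data.

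Named in full are members with an unadjusted p under 0.05, the brightest probe set of each role (by mean signal over the 10 arrays) and, chosen after their values were seen, some others that were high, low or X-linked; of each list, the 3 genes with the smallest p, with 4 further genes (Mtor, Larp1, Dhps and Dohh) also chosen afterwards. Members, roles and lists were chosen with earlier results of these data known. Alternatives were other scalings, pseudocounts of 1 and 32, no filter or one at the 60th percentile, other variance models, array weights, Gapdh and liver covariates, a mean or the brightest probe set per gene, a rank test and omitted arrays. Promoters were searched, and figures drawn, with Python 3.11.15 and matplotlib 3.10.9.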

Additional observations from a re-analysis of the deposited data

Results flagged for a closer look

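Within a group of 5, an array was singled out when its gap to the nearest other array exceeded 0.71 of the group's range, Dixon's 95% critical value. This held 6 times in the 132 groups examined, and chance alone gives about 6.6. In the normal group replicate 5 was low for Eef1b2, at 2209 against 2408.3 to 2451.3 in the other arrays. The same array was high for the brighter Eif4g2 probe set, at 2151.4 against 1688.9 to 1776.1, and for Eif5b, at 277 against 240.9 to 250.5. In the hyperinsulinemic group replicate 6 was high for Eif3c, at 1582.8 against 1364.8 to 1401.3, and low for Eif2d, at 189.8 against 200 to 201.4. Hyperinsulinemic replicate 10 was high for the eIF2B subunit gene Eif2b2, at 478.2 against 327 to 370.4.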

How the results depend on the processing

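No member passed the adjusted threshold in the comparison or in any of 26 alternatives, of which the rank test could not have passed any. The members' median log2 difference ran from 0.02 to 0.04. The count of members at an unadjusted p under 0.05 in limma was 2 of 56, with 5.36% of all tested probe sets at that level. It ran from 0 without normal replicate 1 (4.49% of all) to 6 without normal replicate 5 (5.71% of all) or without hyperinsulinemic replicate 7 (6.13% of all). The members' count was 1 without normal replicate 2 (4.13% of all) and without hyperinsulinemic replicate 6 (5.77% of all). It was also 1 with arrays shifted to a common median and without the intensity trend, and 4 with array weights. For those settings the share of all probe sets was not counted. By the exact rank test the members' count was 2. Groups of 2 members did not overlap without normal replicate 5 (Eif3c and the brighter Eif4g2 probe set). The same held for 2 without hyperinsulinemic replicate 7 (the dimmer Eef1a1 probe set and Eif4a3). Without hyperinsulinemic replicates 6 and 10 together it held for 1, Eif5b, at 282.9 to 344.8 against at most 277. The share of all probe sets without overlap was not counted with arrays left out, and smaller groups separate more readily. The smallest adjusted p of a member with 1 array left out was 0.621. The log2 difference of Eif5a ran from 0.10 to 0.19 (adjusted p 0.584 to 1) and that of the brighter Eef1a1 probe set from 0.04 to 0.22 (0.669 to 1). The dimmer Eef1a1 probe set was reversed, to -0.0173, under quantile normalization. Over all probe sets, the 1 that passed became 5 with no filter, 2 with a common median, 4 with array weights, 0 without the intensity trend, 0 with the liver covariate, 0 without the 2 arrays with the most Alb, and 0 to 4 with each array left out in turn. It became 2 without hyperinsulinemic replicates 6 and 10 together, an alternative chosen after seeing the data. By the rank test it became 0, where 362 of 9601 had an unadjusted p under 0.05 and no p below 0.00794 is possible. With these numbers no probe set could pass the rank test after adjustment, so its 0 says nothing of the members. No paired analysis was possible because the groups share no replicate number. Causes of these changes were not tested.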
